A study of Mus musculus with 20 samples.

Results

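The UDP-glucuronosyltransferases examined here are 10 genes of mouse liver, chosen by name: Ugt1a1, Ugt1a5, Ugt1a6a and Ugt1a9 of the Ugt1a locus, and Ugt2a3, Ugt2b1, Ugt2b5, Ugt2b34, Ugt2b35 and Ugt2b36 of the Ugt2 cluster. They are 10 of the 34933 named genes in the tables, and 10 of the 22 entries whose symbol begins with Ugt. All 10 passed the filter on low counts. Poly(A) RNA was sequenced from the livers of 20 wild-type mice with diet-induced obesity, 5 in each of 4 groups. The groups received vehicle, rosuvastatin, GGOH, or rosuvastatin together with GGOH (the combination below). Rosuvastatin is a statin, an inhibitor of the enzyme that makes mevalonate, and GGOH is the usual abbreviation of geranylgeraniol, an isoprenoid alcohol made downstream of mevalonate. All groups share the wild-type genotype and the obesity, so no lean animal is in the comparisons. The labels used here give no dose, duration, age or sex, and number the animals within each group.

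UDP-glucuronosyltransferases sit in the endoplasmic reticulum and join glucuronic acid from UDP-glucuronate to bilirubin, steroids, bile acids, phenols and many drugs, which makes them soluble enough to be exported into bile or blood. In the Ugt1a locus each gene has a first exon of its own, which codes for the part of the enzyme that binds the substrate, spliced to a set of last exons that all Ugt1a genes share and that codes for the part that binds UDP-glucuronate. The Ugt2 genes examined here are separate genes with their own exons, arisen by duplication. Several Ugt1a genes are known targets of the receptors CAR, PXR, AhR and PPAR-alpha.

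The shared exons limit how well RNA can be assigned to 1 Ugt1a gene, so the sequence at the splice junction is shown for each of the 4. Each line gives the last 30 bases of the gene's own part in lower case and the first 30 bases of the shared end in capitals, 5′ to 3′ on the RNA strand, from the GENCODE M21 transcripts (GRCm38).
Ugt1a1: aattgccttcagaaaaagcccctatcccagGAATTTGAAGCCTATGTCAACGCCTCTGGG
Ugt1a5: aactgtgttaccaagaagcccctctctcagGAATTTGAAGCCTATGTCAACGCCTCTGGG
Ugt1a6a: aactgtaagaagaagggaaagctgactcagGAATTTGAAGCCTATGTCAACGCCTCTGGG
Ugt1a9: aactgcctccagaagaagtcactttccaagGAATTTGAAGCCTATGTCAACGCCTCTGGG
The capitals are identical in the 4 genes, and the identity goes on for 1311 bases over 4 exons to the end of the transcript. The own parts are 913 bases long in Ugt1a1, 892 in Ugt1a5, 986 in Ugt1a6a and 879 in Ugt1a9, and any pair of them is 62.8 to 67.2% identical. Of all 31-base words in the transcript, 41.5% occur in no other gene for Ugt1a1, 34.7% for Ugt1a5 and 32.2% for Ugt1a9. Ugt1a6a has no such word, because its whole transcript is contained in that of Ugt1a7c, so any read of Ugt1a6a also matches Ugt1a7c. The Ugt2 genes are easier to separate: between 86.5 and 99.2% of the words are private to Ugt2a3, Ugt2b1, Ugt2b34, Ugt2b35 and Ugt2b36. Ugt2b5 is the exception with 43.6%, since 44.9% of its words recur in Ugt2b38.

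In GENCODE M21 on GRCm38, the Ugt1a genes lie on the plus strand of chromosome 1 and end at the same base: Ugt1a9 at chr1:88070800-88218997, Ugt1a6a at chr1:88134809-88218997, Ugt1a5 at chr1:88166012-88218997 and Ugt1a1 at chr1:88211959-88218997. The Ugt2 genes lie on chromosome 5: Ugt2b34 at chr5:86889767-86906937, Ugt2b1 at chr5:86916638-86926530, Ugt2b35 at chr5:87000860-87013275, Ugt2b36 at chr5:87065927-87092555, Ugt2b5 at chr5:87124960-87140318 and Ugt2a3 at chr5:87324972-87337195. Ugt2b35 is on the plus strand and the other 5 are on the minus strand.

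Libraries held between 8548120 and 18373913 estimated counts. Mitochondrial transcripts took 8.06 to 17.1% of them in 18 libraries, and 27.9% and 29.2% in combination mice 2 and 3. Library scaling factors (TMM) ran from 0.761 to 1.25, with both extremes in the vehicle group, at vehicle mouse 5 and vehicle mouse 1. Counts of the 10 genes, the Ugt1a9 values and the call of Cyp2b10 are also given below with 3 libraries left out, those of vehicle mouse 1 and of combination mice 2 and 3. The summed level of 6 hepatocyte markers was 27179.5 to 76177.3 TPM, whereas 4 kidney tubule markers summed to at most 0.133 TPM (Umod and Kap were at 0 in all mice) and 4 bile duct markers to at most 6.41 TPM. Other lists were higher: 5 stellate cell markers summed to 94.7 to 270.6 TPM and 4 adipocyte markers to 38.1 to 118 TPM. The 4 markers listed for intestine epithelium, Apoa4 among them, summed to 815.8 to 4047.6 TPM. These are bulk liver libraries, in which fewer cells of a type and less RNA per cell cannot be told apart.

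Levels of different genes were compared in TPM, a unit of transcript abundance corrected for transcript length and library size. The 10 genes spanned a wide range, from a mean of 535.2 TPM for Ugt2b36 to 24.9 TPM for Ugt1a9 over the 20 mice. Ugt2b36 was the highest of the 10 and Ugt2b5 (431.8 TPM) the next in every one of the 20 mice. Ugt1a1, the bilirubin-conjugating enzyme, had a mean of 180.0 ± 43.9 TPM (SD, n = 20) and Ugt2b34 of 176.2 TPM, and their order changed from mouse to mouse: Ugt1a1 was the higher in 12 of 20. Ugt2b1 (81.4 TPM), Ugt2a3 (75.7 TPM) and Ugt2b35 (58.2 TPM) came next. Ugt1a5 (28.8 TPM), Ugt1a6a (25.3 TPM) and Ugt1a9 closed the order. In 5 neighbouring pairs the mean difference within a mouse was smaller than its SD over the mice: Ugt1a1 and Ugt2b34, Ugt2b1 and Ugt2a3, Ugt2a3 and Ugt2b35, Ugt1a5 and Ugt1a6a, and Ugt1a6a and Ugt1a9.

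**Figure D1:**
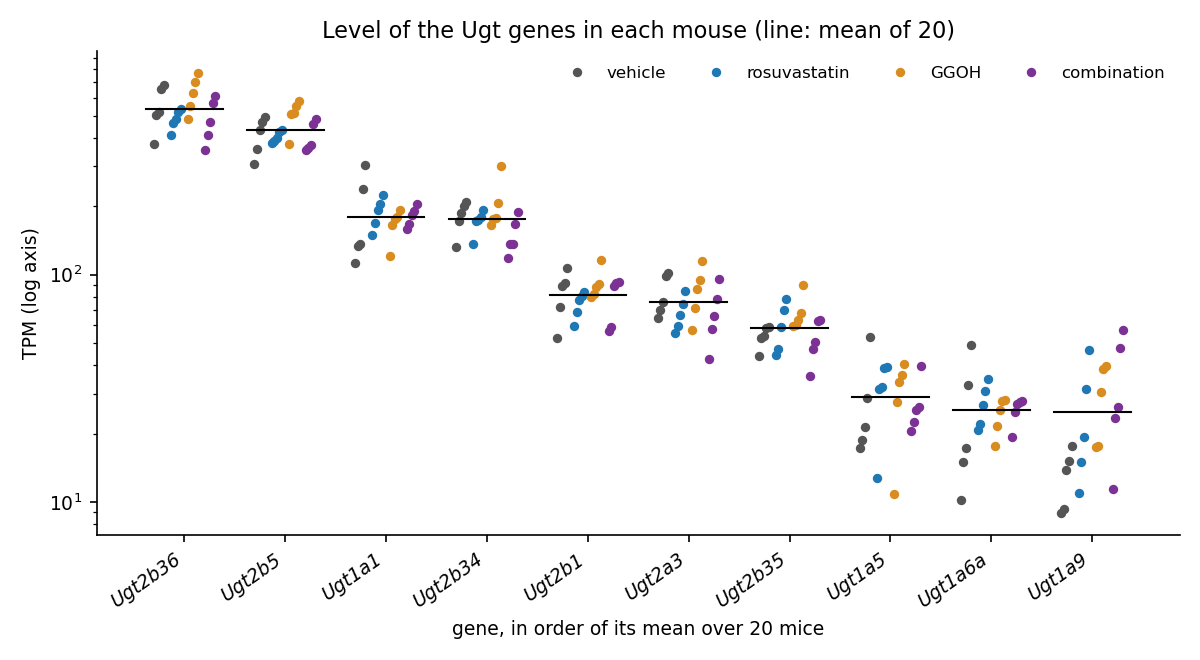
TPM (log axis) of each of the 10 Ugt genes in each of 20 mice, coloured by group, with a black line at the mean of all mice; genes are ordered by that mean, and points within a group are sorted by value. Ugt2b36 and Ugt2b5 are the 2 highest genes, with means of 535.2 and 431.8 TPM, and Ugt1a5, Ugt1a6a and Ugt1a9 overlap at the low end.

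Together the 10 genes summed to 1606.6 ± 154.9 TPM (SD, n = 5) with vehicle and 1529.7 ± 77.1 TPM with rosuvastatin. The sum was 1832.4 ± 263.3 TPM with GGOH and 1501.5 ± 231.5 TPM with the combination. The 6 Ugt2 genes made up 83.7 ± 4.59% of this sum (SD, n = 20) and the 4 Ugt1a genes 16.3%. Ugt2b36 alone gave 32.9%, Ugt2b5 26.7%, Ugt1a1 11.3% and Ugt2b34 10.8%. The SD of the Ugt1a1 share was 5.36 percentage points with vehicle and 1.80 to 2.02 in the treated groups, whereas that of the Ugt1a9 share was 0.311 with vehicle and 0.712 to 1.19 in the treated groups.

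For comparisons between mice, counts were divided by the TMM-scaled library size and given as CPM, and the edgeR quasi-likelihood test was run on all 12789 genes that passed the filter, with Benjamini-Hochberg adjustment over them. None of the 10 genes passed an adjusted p of 0.05 in any of the 8 comparisons: 5 between pairs of groups, the interaction of the compounds, and 2 that average over the second compound (called averaged rosuvastatin and averaged GGOH below). Across all genes 0% passed in 7 of the 8, and 0.00782% (1 gene, Cyp2b10) for averaged GGOH. Below, unadjusted p-values under 0.05 are therefore counted as a description and set beside the share of all genes that reached the same p. The 5 pairwise comparisons reuse the same 4 groups, so they are not independent of one another.

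Ugt1a9, which conjugates phenolic compounds, had the highest fitted change of the 10 genes in GGOH against vehicle. Its CPM was 19.5, 25.3, 26.4, 48.7 and 28.9 in the 5 vehicle mice. With GGOH it was 41.9, 77.4, 83.3, 65.8 and 38.1. In 3 of 5 GGOH mice it lay above all vehicle mice, and the groups overlapped through vehicle mouse 4. With rosuvastatin it was 43.4, 25.9, 49.8, 32.6 and 78.2 CPM, 2 of 5 mice lying above the vehicle range. With the combination it was 27.9, 51.9, 89.5, 55.9 and 100.9 CPM, and 4 of 5 mice lay above all vehicle mice. Group means of Ugt1a9 were 29.8 ± 11.1 CPM (SD, n = 5) for vehicle, 46.0 ± 20.3 for rosuvastatin, 61.3 ± 20.5 for GGOH and 65.2 ± 29.6 for the combination.

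In the edgeR quasi-likelihood test, the log2 fold change of Ugt1a9 was 1.04 ± 0.34 (SE) in GGOH against vehicle, with an unadjusted p of 0.00586 and a Benjamini-Hochberg adjusted p of 1. It was the only 1 of the 10 genes under 0.05 there, where 2.86% of all genes were, 1.26% higher and 1.60% lower. In the combination against vehicle the value was 1.13 ± 0.34, with an edgeR adjusted p of 0.817. Its unadjusted p was 0.00326, again the only 1 of the 10 genes under 0.05. There 5.50% of all genes were under 0.05, 2.69% of them higher and 2.81% lower. Averaged GGOH gave 0.77 ± 0.24, with an edgeR adjusted p of 1. Its unadjusted p was 0.00397, and 1.70% of all genes were under 0.05, 0.899% higher and 0.805% lower. The 3 p-values stayed under 0.05 without any 1 of the 20 libraries, with log2 fold changes of 0.91 to 1.28 in GGOH against vehicle, 0.91 to 1.38 in the combination against vehicle and 0.66 to 0.92 for averaged GGOH. When vehicle mouse 1 and combination mice 2 and 3 were all left out, Ugt1a9 had 0.94 in GGOH against vehicle, 0.94 in the combination against vehicle and 0.68 for averaged GGOH, each still under 0.05 unadjusted. The combination against rosuvastatin gave 0.50 ± 0.34 and rosuvastatin against vehicle 0.63 ± 0.34, neither under 0.05.

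The neighbouring entries Ugt1a8 and Ugt1a10 share the last exons with Ugt1a9. Ugt1a8 was under 1 CPM in 11 of 20 mice and reached 53.7 CPM in another. The rows of Ugt1a8, Ugt1a9 and Ugt1a10 were therefore also summed, an alternative chosen after the values were seen. The sum was 58.8 ± 32.3 CPM (SD, n = 5) for vehicle and 59.6 ± 23.7 for rosuvastatin. It was 88.7 ± 29.4 CPM for GGOH and 74.4 ± 28.0 CPM for the combination. Its log2 fold change was 0.60 ± 0.36 in GGOH against vehicle and 0.34 ± 0.36 in the combination against vehicle. The unadjusted edgeR p-values were 0.116 and 0.358. Mean Ugt1a8 was 17.3 CPM for vehicle, 2.98 for rosuvastatin, 15.9 for GGOH and 1.97 for the combination. Mean Ugt1a10 was 11.7, 10.6, 11.5 and 7.18 CPM in the same order. For averaged GGOH the 3 summed rows had 0.46 ± 0.26, with an unadjusted edgeR p of 0.0887. The division of reads among these 3 entries was not tested. All 9 Ugt1a rows together differed by 0.00 ± 0.14 in GGOH against vehicle and by -0.02 ± 0.14 in the combination against vehicle.

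Ugt1a1, which conjugates bilirubin, spanned the narrowest range of the 10 genes in CPM, but not in TPM. Its CPM was 435.8, 323.6, 425.7, 375.1 and 429.7 with vehicle. It was 338.5, 405.2, 359.6, 423.9 and 349.0 with rosuvastatin. The GGOH mice had 295.2, 347.3, 423.2, 391.8 and 363.8, and the combination mice 392.6, 413.6, 363.3, 443.7 and 299.2. All 20 values lay within a 1.5-fold range in CPM, against a 2.71-fold range in TPM, and all 4 groups overlapped. Its fitted log2 differences from vehicle were -0.09 ± 0.15 for rosuvastatin, -0.13 ± 0.15 for GGOH and -0.06 ± 0.15 for the combination, none of them larger than its SE.

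Ugt1a6a, an enzyme for small planar phenols, ran from 33.7 to 76.4 CPM over the 20 mice, with both extremes in the vehicle group. Its group means were 57.5 ± 16.5 CPM (SD, n = 5) for vehicle, 60.0 ± 3.92 for rosuvastatin, 58.3 ± 9.69 for GGOH and 62.1 ± 6.52 for the combination. Ugt1a5 ran from 26.1 to 88.1 CPM, with group means of 58.6 ± 10.7 CPM, 60.6 ± 20.3, 63.6 ± 23.7 and 56.2 ± 14.7 in the same order. Neither gene had an unadjusted edgeR p under 0.05 in any comparison. Of the 4 Ugt1a genes examined here, then, only Ugt1a9 had a fitted log2 difference from vehicle larger than its SE in each treated group. Outside the 10 genes, Ugt1a7c, at a mean of 2.25 CPM, did so too. It had 1.03 ± 0.58 for rosuvastatin, 0.97 ± 0.59 for GGOH and 1.71 ± 0.58 for the combination. The summed rows of Ugt1a8, Ugt1a9 and Ugt1a10 did so with GGOH only, at 0.02 ± 0.36, 0.60 ± 0.36 and 0.34 ± 0.36 in the same order.

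**Figure D2:**
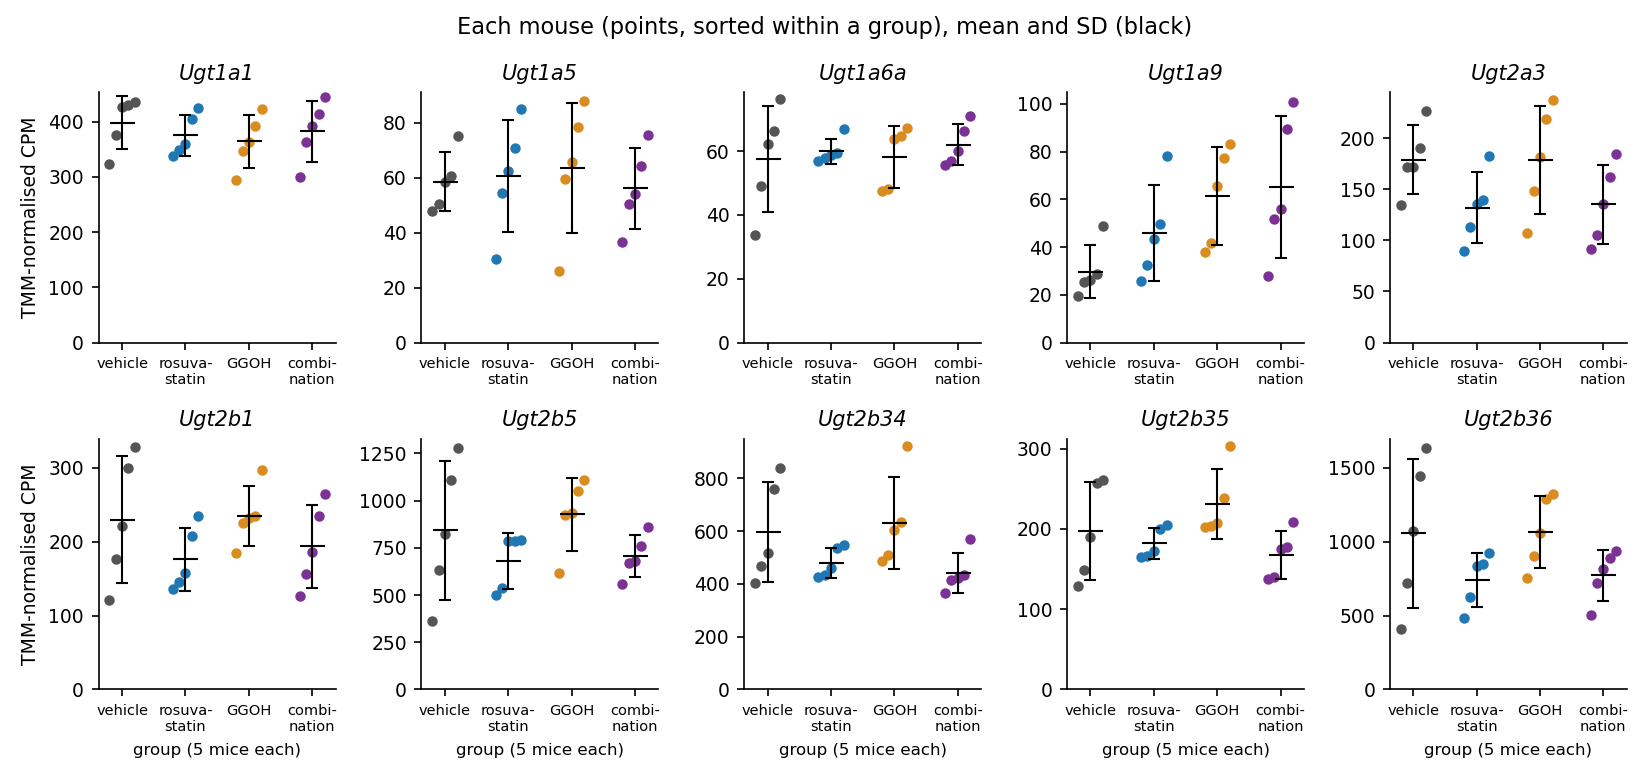
TMM-normalised CPM of each Ugt gene (1 panel per gene, each with its own axis from 0) in the 4 groups of 5 mice; points are mice, sorted within a group, and black marks are the mean and SD. Ugt1a9 has means of 29.8, 46.0, 61.3 and 65.2 CPM from vehicle to the combination, and the vehicle mice spread widest for Ugt2b36, from 409.7 to 1634.5 CPM.

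The 6 Ugt2 genes, which act on steroids, bile acids and other lipophilic substrates, had lower mean CPM in both groups given rosuvastatin than in the corresponding groups without it. In rosuvastatin against vehicle Ugt2b35 turned direction on other scales: its mean was 59.6 TPM against 53.5 TPM, and its log2 fold change was 0.06 with offsets for GC content and length. Ugt2b36 was 409.7, 1444.9, 722.0, 1075.2 and 1634.5 CPM with vehicle. It was 921.2, 836.0, 483.3, 849.1 and 625.2 CPM with rosuvastatin. The vehicle mice thus held both the lowest and the highest of the 20 values, and no rosuvastatin mouse lay outside the vehicle range. With GGOH it was 1291.2, 750.9, 1056.9, 1323.2 and 902.4 CPM, and with the combination 888.7, 717.1, 502.5, 939.4 and 812.2 CPM. In that second pair, 2 of 5 combination mice lay below all GGOH mice.

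Ugt2b34 separated the GGOH and combination mice further. Its CPM was 602.8, 485.3, 634.7, 922.0 and 510.5 with GGOH. It was 413.2, 434.1, 367.2, 568.5 and 421.0 with the combination. In 4 of 5 combination mice it lay below all GGOH mice. With vehicle it was 403.5, 839.3, 468.6, 518.5 and 758.0 CPM, and with rosuvastatin 547.0, 460.8, 433.4, 536.0 and 427.7, all 5 inside the vehicle range.

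Ugt2b35 followed the same order. It was 238.0, 207.2, 203.4, 303.4 and 201.7 CPM with GGOH. It was 137.1, 177.8, 140.2, 208.0 and 174.4 CPM with the combination. Again 4 of 5 combination mice lay below all GGOH mice. With vehicle it was 129.4, 260.9, 148.7, 190.3 and 257.5 CPM, and with rosuvastatin 166.3, 164.5, 172.8, 200.3 and 205.4.

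Ugt2a3 was 134.2, 190.4, 171.9, 171.4 and 226.5 CPM with vehicle. With rosuvastatin it was 182.7, 135.5, 113.5, 139.3 and 89.2 CPM, 2 of 5 mice lying below all vehicle mice. With GGOH it was 218.5, 107.2, 181.2, 237.6 and 148.2 CPM, and with the combination 184.1, 91.1, 105.1, 135.1 and 161.7. The spread within each group was about as large as the difference between groups. The means of Ugt2b5 were 842.2 CPM for vehicle, 681.0 for rosuvastatin, 927.4 for GGOH and 705.8 for the combination. Those of Ugt2b1 were 229.9, 176.5, 235.1 and 193.7 CPM in the same order. For these 2 genes all 4 groups overlapped.

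Averaged over mice with and without GGOH, rosuvastatin gave negative fitted log2 fold changes for all 6 Ugt2 genes (median -0.38, against 0.01 over all genes). Unadjusted p-values were under 0.05 for 4 of the 10 genes, all lower: Ugt2b34 (-0.42 ± 0.15), Ugt2a3 (-0.42 ± 0.17), Ugt2b36 (-0.49 ± 0.21) and Ugt2b35 (-0.29 ± 0.14). In that comparison 14.4% of all genes reached this p, 7.97% in the lower direction and 6.43% in the higher. The edgeR adjusted p-values of the 4 lay between 0.327 and 0.344. In the combination against GGOH, 2 of the 10 genes had an unadjusted p under 0.05, both lower: Ugt2b34 (-0.52 ± 0.21) and Ugt2b35 (-0.46 ± 0.19), each with an edgeR adjusted p of 0.348. There 14.0% of all genes reached this p, 5.04% in the lower direction and 8.95% in the higher.

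In rosuvastatin against vehicle 0 of the 10 genes had an unadjusted p under 0.05, where 3.69% of all genes did, 1.77% higher and 1.92% lower. The lowest value was that of Ugt2b36 at -0.51 ± 0.30. In the combination against rosuvastatin the count was 0 of 10, beside 1.69% of all genes, 1.02% higher and 0.665% lower. For the interaction it was also 0 of 10, beside 2.89% of all genes (2.10% higher and 0.790% lower), and its most negative value was that of Ugt1a9 at -0.54. In no pairwise comparison were the 2 groups free of overlap for any of the 10 genes. Among all genes the share free of overlap was 0.235% higher and 0.281% lower in rosuvastatin against vehicle, 0.195% and 0.235% in GGOH against vehicle, 0.0860% and 0.180% in the combination against rosuvastatin, 0.258% and 0.500% in the combination against vehicle, and 0.930% and 1.33% in the combination against GGOH.

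The base composition of transcripts moved with the rosuvastatin comparison. With all genes in 5 equal bins by GC content, the 6 Ugt2 genes were in the lowest bin (31.9 to 44.9% GC, with Ugt2b35 at 39.3% and Ugt2b36 at 41.7%), and the 4 Ugt1a genes were in the next. Over all genes of the lowest bin the median log2 fold change for averaged rosuvastatin was -0.17, and it was 0.23 in the highest bin. In the combination against GGOH the 2 medians were -0.20 and 0.26. With offsets for GC content and length, the number of the 10 genes with an unadjusted p under 0.05 went from 4 to 0 for averaged rosuvastatin and from 2 to 0 for the combination against GGOH. In rosuvastatin against vehicle it went from 0 to 1, Ugt1a9 (0.69 ± 0.33, edgeR adjusted p = 0.993). Over all 12789 genes the counts went from 1841 to 1339, from 1788 to 1227 and from 472 to 551 in these comparisons. With these offsets averaged rosuvastatin gave -0.28 ± 0.14 for Ugt2b34, -0.25 ± 0.15 for Ugt2a3, -0.18 ± 0.11 for Ugt2b36 and -0.12 ± 0.11 for Ugt2b35. Ugt1a9 kept 0.76 ± 0.23 for averaged GGOH.

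The same counts depended on single libraries. For averaged rosuvastatin, 1 gene of the 10 had an unadjusted p under 0.05 without vehicle mouse 5 or without rosuvastatin mouse 5. Without vehicle mouse 1, 6 of the 10 did. The counts over all genes moved as well: in that order they were 1188 of 12956, 1485 of 12915 and 3797 of 12912. With all libraries the count was 1841 of 12789. For the combination against GGOH the count among the 10 was 0 without GGOH mouse 4 or without combination mouse 3, and 3 without GGOH mouse 2. Over all genes it was 911 of 12935, 722 of 12902 and 1668 of 12917, beside 1788 of 12789 with all libraries. When vehicle mouse 1 was left out, the count among the 10 went from 0 to 2 in rosuvastatin against vehicle. In the combination against vehicle it went from 1 to 3. Over all genes the counts went from 472 of 12789 to 1760 of 12912 and from 704 of 12789 to 2204 of 12912. In the combination against rosuvastatin the count among the 10 was 1, Ugt1a9, without rosuvastatin mouse 5 or without combination mouse 1. Over all genes it was 223 of 12915 and 231 of 12941, beside 216 of 12789 with all libraries. Vehicle mouse 1 and combination mice 2 and 3 were also left out together. The counts among the 10 were then 4 for averaged rosuvastatin, 0 for the combination against GGOH and 4 for rosuvastatin against vehicle. Over all genes they were 2183, 427 and 1893 of 12985.

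**Figure D3:**
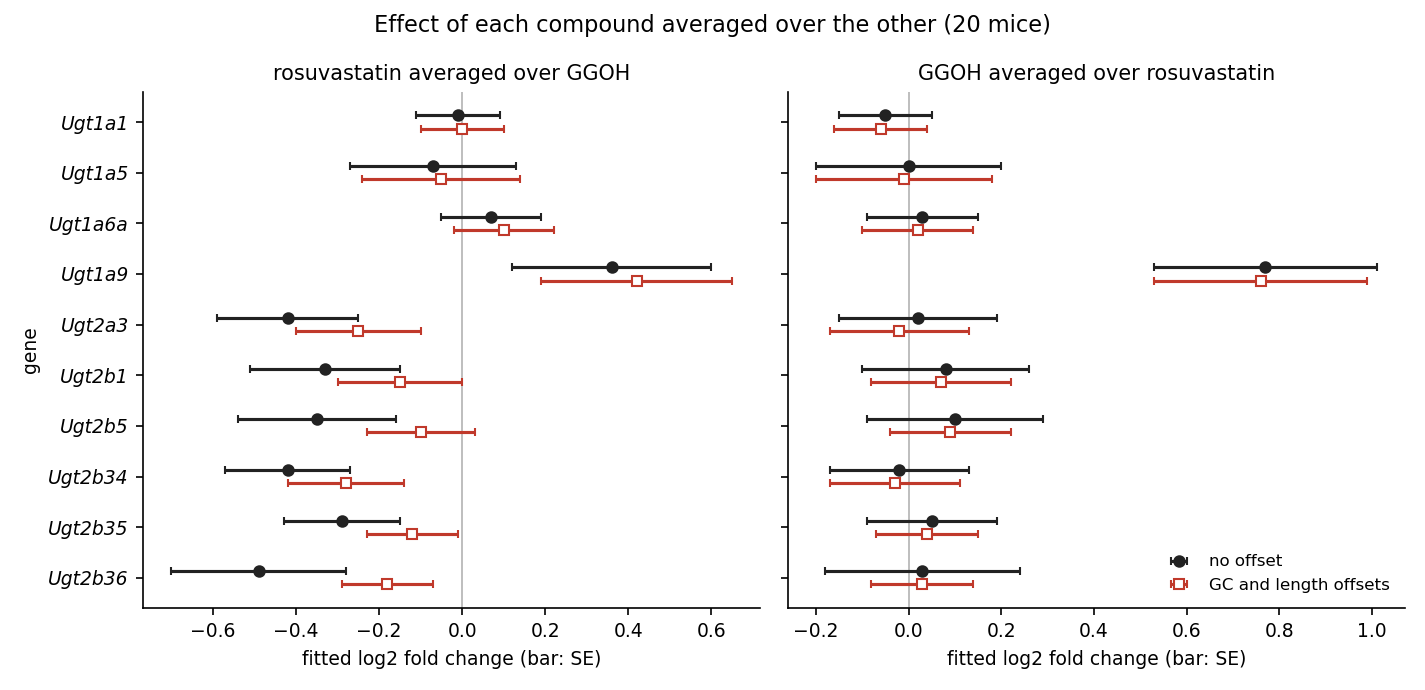
Fitted log2 fold change and SE of each Ugt gene for rosuvastatin averaged over GGOH (left) and GGOH averaged over rosuvastatin (right), without (black circles) and with (red squares) offsets for GC content and length; the 2 panels have different axes. The 6 Ugt2 genes lie between -0.49 and -0.29 on the left and closer to 0 with the offsets, and Ugt1a9 stands at 0.77 on the right with either fit near that value.

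Genes around glucuronidation were described by lists. The first holds 10 genes that make UDP-glucuronate or handle glucuronides, all tested. In GGOH against vehicle 0 of the 10 had an unadjusted edgeR p under 0.05 in either direction, beside 2.86% of all genes (median log2 fold change -0.01, against -0.02 over all genes). For averaged rosuvastatin 1 was lower and 0 higher, beside 7.97% and 6.43% of all genes, with a median of 0.17: Ugp2, which makes UDP-glucose, the precursor of UDP-glucuronate, had -0.45 ± 0.18 (edgeR adjusted p = 0.327). Its means were 543.3 CPM for vehicle, 417.6 for rosuvastatin, 598.1 for GGOH and 418.5 for the combination. In the combination against GGOH 2 were higher and 0 lower, beside 8.95% and 5.04% of all genes, the glucuronide exporters Abcc3 (0.63 ± 0.24) and Abcc2 (0.72 ± 0.32), both with an edgeR adjusted p of 0.348.

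Of 7 genes of bilirubin formation and uptake, 2 were lower and 0 higher by unadjusted p for averaged rosuvastatin, where 7.97% of all genes were lower and 6.43% higher. The median log2 fold change of the 7 was -0.35, against 0.01 over all genes. They were the hepatic uptake carriers Slco1b2 (-0.47 ± 0.15) and Slco1a4 (-0.42 ± 0.20), with edgeR adjusted p-values of 0.327 and 0.341. Slco1b2 was 2127.4 ± 695.3 CPM (SD, n = 5) with vehicle and 1545.1 ± 245.5 with rosuvastatin. In GGOH against vehicle 1 of the 7 was higher and 0 lower, beside 1.26% and 1.60% of all genes. It was the heme oxygenase Hmox1 (0.82 ± 0.31, edgeR adjusted p = 1).

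Of 12 regulators known to act on Ugt genes, 1 was lower and 0 higher by unadjusted p in GGOH against vehicle, beside 1.60% and 1.26% of all genes (median log2 fold change -0.17, against -0.02 over all genes). It was Ahr, the aryl hydrocarbon receptor, at -0.58 ± 0.15, with an unadjusted p of 0.000784 and an edgeR adjusted p of 1. Its CPM ranged from 18.5 to 25.1 for vehicle, 14.7 to 25.6 for rosuvastatin, 13 to 16.2 for GGOH and 13.5 to 18.2 for the combination. No GGOH mouse and no combination mouse thus reached the vehicle range. Among all genes 0.235% were lower without overlap in GGOH against vehicle, and 0.500% in the combination against vehicle. The other 11, among them the genes of CAR (Nr1i3), PXR (Nr1i2) and the hepatic factor Hnf4a, were not under 0.05 in GGOH against vehicle.

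Among 9 tested sentinel genes of these receptors, 3 were higher and 0 lower by unadjusted p for averaged GGOH, beside 0.899% and 0.805% of all genes. Cyp2b10, the classical CAR target, was the only gene of the whole table to pass the adjusted threshold there, with 2.37 ± 0.35 and an edgeR adjusted p of 0.0155. Without any 1 of vehicle mouse 2, rosuvastatin mouse 2, rosuvastatin mouse 4, GGOH mouse 3, GGOH mouse 4 or combination mouse 2, 0 genes passed, and 0 passed when vehicle mouse 1 and combination mice 2 and 3 were all left out. Cyp2b10 was at a low level: its means were 0.713 CPM for vehicle, 0.752 for rosuvastatin, 2.48 for GGOH and 6.04 for the combination. Cyp2c29 (0.74 ± 0.16, edgeR adjusted p = 0.455) and Cyp3a11, the PXR target (0.41 ± 0.19, edgeR adjusted p = 1), were the other 2. Of 12 genes of other conjugation reactions, 2 were higher and 3 lower by unadjusted p for averaged rosuvastatin, beside 6.43% and 7.97% of all genes. The smallest p-values were those of the glutathione transferases Gsta1 (1.43 ± 0.46) and Gstm1 (0.76 ± 0.26), both with an edgeR adjusted p of 0.327, and of the sulfotransferase Sult1d1 (-0.52 ± 0.21, edgeR adjusted p = 0.328). For averaged GGOH the count was 0 of 12 in either direction, beside 1.70% of all genes.

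Apart from treatment, the Ugt2 genes went together from mouse to mouse in CPM. Correlations were computed over the 20 mice on log2 CPM after the mean of each group was removed, 65 relations in all (45 pairs of the 10 genes, and each gene with Cyp2b10 and with the mitochondrial share). The p-values came from 100000 permutations and were adjusted by Benjamini-Hochberg over the 65. Pearson's r passed in 14 relations. Of the 15 pairs of Ugt2 genes 12 passed, with r from 0.29 to 0.973 over the 15 and a median of 0.708. Pairs of other liver genes were not computed, so how often such pairs would pass is not known here. Of 6 pairs of Ugt1a genes 1 passed, and of 24 pairs of a Ugt1a with a Ugt2 gene 0 did.

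The closest pair was Ugt2b5 and Ugt2b36, with Pearson's r of 0.973 and Spearman's rho of 0.953. Both had a permutation p of 1e-05, the smallest these permutations can give, and adjusted values of 0.000162 and 0.000325. Without the 2 mice farthest from the median of Ugt2b5, r was 0.947. Their transcripts are 87.1% identical, and 4.16% of the 31-base words of Ugt2b5 occur in Ugt2b36. Both genes had their lowest CPM in vehicle mouse 1 (TMM factor 1.25) and their highest in vehicle mouse 5 (0.761). What shared reads or library scaling add to the correlation of this pair was not tested. The next pair was Ugt2b34 and Ugt2b35, with r = 0.853 (permutation p = 1e-05, adjusted 0.000162), rho = 0.753 (permutation p = 0.00012, adjusted 0.0013) and r = 0.785 without the 2 farthest mice. In the Ugt1a locus, Ugt1a1 and Ugt1a6a had r = 0.773 (permutation p = 6e-05, adjusted 0.00078) and rho = 0.794 (permutation p = 9e-05, adjusted 0.00117), with r = 0.805 without the 2 farthest mice. The other Ugt1a pairs had r from -0.282 to 0.36 and did not pass. All 6 Ugt1a pairs share their last exons, as in the junctions above, and what this adds to their r was not tested. Ugt1a9 passed with none of the other 9 genes.

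The number of Ugt2 pairs that passed fell with the scale and the libraries used. It was 2 of 15 on log2(TPM + 1), 5 of 15 with offsets for GC content and length, and 6 of 15 when vehicle mouse 1 and combination mice 2 and 3 were left out. The median r of the 15 pairs was 0.36, 0.555 and 0.581 in these 3. The lowest r was -0.108, -0.00416 and -0.121, and the highest 0.916, 0.949 and 0.959. For the Ugt1a pairs the count rose on log2(TPM + 1), to 3 of 6, against 1 of 6 in CPM. All 6 were then positive, with a median r of 0.519, against 0.147 in CPM. Of the 24 pairs of a Ugt1a with a Ugt2 gene, 1 passed on log2(TPM + 1). With Cyp2b10, 0 of 10 genes passed by Pearson's r; Ugt1a6a had r = 0.493 (permutation p = 0.0259, adjusted 0.105) and rho = 0.624 (permutation p = 0.00406, adjusted 0.0264). On log2(TPM + 1) 4 of 10 passed with Cyp2b10, with a median r of 0.401 over the 10 against 0.115 in CPM. With the mitochondrial share 1 of 10 passed, Ugt2a3, with r = -0.556 (permutation p = 0.00932, adjusted 0.0433), rho = -0.548 (permutation p = 0.0127, adjusted 0.0592) and r = -0.535 without the 2 farthest mice. Without the 3 libraries above 0 of 10 passed.

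**Figure D4:**
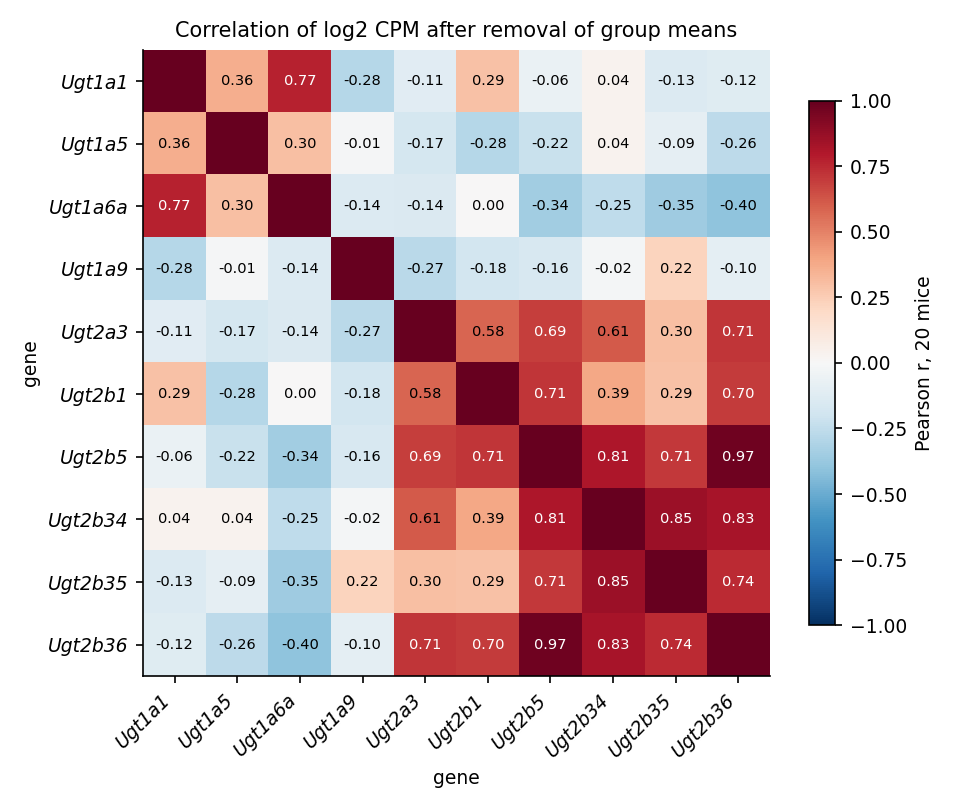
Pearson's r between the 10 Ugt genes over 20 mice, on log2 CPM after the mean of each group was removed; red is positive, blue negative, and the diagonal is 1 by construction. The 6 Ugt2 genes form a block of positive values from 0.29 to 0.973, and Ugt1a1 with Ugt1a6a (0.773) is the one Ugt1a pair that passed.

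The promoters of the pair that went together most closely are shown, 250 bases upstream of the start in RefSeq (GRCm38.p6), 5′ to 3′ on the strand of the gene. For Ugt2b5 (chr5:87140341-87140590, minus strand) and Ugt2b36 (chr5:87092556-87092805, minus strand) the capitals mark the longest run of bases found in both.
Ugt2b5: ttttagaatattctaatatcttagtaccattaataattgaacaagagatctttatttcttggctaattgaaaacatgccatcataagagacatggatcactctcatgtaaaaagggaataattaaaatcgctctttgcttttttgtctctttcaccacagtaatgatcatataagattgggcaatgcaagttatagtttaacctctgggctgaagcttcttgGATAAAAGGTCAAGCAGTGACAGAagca
Ugt2b36: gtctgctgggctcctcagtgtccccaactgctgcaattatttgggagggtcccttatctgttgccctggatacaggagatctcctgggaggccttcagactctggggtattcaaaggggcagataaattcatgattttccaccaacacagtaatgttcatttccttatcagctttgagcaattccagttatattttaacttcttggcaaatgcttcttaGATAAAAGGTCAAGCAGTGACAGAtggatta
The shared run is 24 bases long and starts 28 bases before the start of Ugt2b5 and 31 before that of Ugt2b36. It occurs in 3 promoters of the RefSeq table on either strand, the third being that of Ugt2b37, and the 2 promoters are 69.6% identical over their aligned bases.

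Promoters of the same length were searched on both strands for motifs of receptors named above, in all 10 genes and in the 32851 promoters of the table. The AhR core GCGTG was in 1 of the 10, that of Ugt1a5, and in 28.2% of all. The sequence AGTTCA, 1 form of the nuclear receptor half-site, was in 1 of the 10, that of Ugt1a1, and in 11.8% of all. Other forms were not counted, among them AGGTCA, which lies in the shared run of Ugt2b5 and Ugt2b36 above.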

How the data were processed

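Per the labels' protocols, poly(A) RNA of mouse liver was sequenced as paired reads. The submitters' processing notes name GRCm38 and, as tools, kallisto 0.44.0, bcl2fastq 2.19 and DESeq2. The authors deposited a table of estimated counts per gene, rounded here to whole numbers, and a table of TPM per gene. kallisto divides reads among transcripts that share sequence. 1 entry without a name was left out (0.00801 to 0.0157% of counts).

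The 10 genes, the lists and the tests were chosen with earlier results of these data known. edgeR 4.0.16 (R 4.3.3) fitted quasi-likelihood models on all 20 libraries in 4 groups with TMM and the default filter (12789 genes), adjusted by Benjamini-Hochberg at a threshold of 0.05. SEs come from the F statistic. The labels do not say more than a number for each animal, so p-values measure the spread between these samples. Named genes were all 10 with their levels, their change wherever the unadjusted p was under 0.05, the highest and lowest otherwise, and up to 3 genes of a list by smallest p. Ugt2b5, Ugt2b1 and the Ugt1a sums outside this rule were chosen after their values were seen, as were Nr1i2, Nr1i3 and Hnf4a. One regulator of the lists is not reported here by name.

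Permutations treated the 20 deviations from group means as exchangeable. Words of 31 bases and transcript identity (Biopython 1.88) used GENCODE M21, since no protein table was used here. Markers of hepatocytes, bile duct, kidney tubule and other cell types were summed in TPM, and not all of these lists are given above. The alternatives were RLE size factors, DESeq2 1.42.0, no filter, a minimum of 1 CPM in 5 libraries, a fit of just the groups in question, the replicate number as a block, mitochondrial genes left out, length offsets, GC content and length offsets, limma 3.58.1 on log2(TPM + 1) and log2(TPM + 0.1), each library left out, and 3 libraries left out. Summing Ugt1a rows and GC offsets in the correlations were added after the data were seen. Same-numbered mice of different groups did not deviate together.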

Additional observations from a re-analysis of the deposited data

Results flagged for a closer look

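Ugt1a6a in rosuvastatin mouse 4 stood at 66.8 CPM, while the other 4 rosuvastatin mice lay between 56.8 and 59.3 CPM. The gap to the nearest of them was 0.752 of the range of the group. The value is inside the range of the vehicle group. Each of the 10 genes was examined in this way in each of 4 groups, 40 in all, and chance gives about 1 in 20 such gaps.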

How the results depend on the processing

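Under 34 other settings, 0 of the 10 genes passed an adjusted p of 0.05 in any comparison. Signs were followed only for 20 named changes, each picked from these data as highest, lowest or under 0.05 unadjusted in its comparison. Other changes were not counted, such as that of Ugt2b35 in rosuvastatin against vehicle, which turned with GC content and length offsets. The 20 named changes kept their sign in 659 values and turned in 1. That was Ugt1a9 for rosuvastatin averaged over GGOH, at -0.12 when the rows of Ugt1a8, Ugt1a9 and Ugt1a10 were summed. Taken singly in that comparison, Ugt1a9 had 0.36 ± 0.24, Ugt1a8 -2.74 ± 1.17 and Ugt1a10 -0.39 ± 0.64. The 14 correlations that passed became 7 without vehicle mouse 1 and combination mice 2 and 3, where fewer mice entered, and 6 with GC content and length offsets, whose cause was not tested. With the replicate number as a block 0 of the 10 genes passed in any comparison, and over all genes the 1 call for averaged GGOH became 0. The numbers did not pair the mice: the mean correlation of same-numbered mice was 0.00966 over 30 pairs, and 4 of 20 mice correlated best with their own number. Over all genes DESeq2 called 4 for rosuvastatin against vehicle, 1 for GGOH against vehicle, 2 for the combination against rosuvastatin, 4 for the combination against vehicle, 1 for averaged rosuvastatin and 4 for averaged GGOH, where edgeR called 0, 0, 0, 0, 0 and 1. On log2(TPM + 1) the median of all genes in rosuvastatin against vehicle was 0.11, against -0.02 in CPM, and that of the 6 Ugt2 genes -0.10. On the same scale, 0 of the 10 genes had an unadjusted p under 0.05 for averaged rosuvastatin, beside 907 of 12789 genes. The smallest estimated count of any of the 10 genes in a library was 267, for Ugt1a5.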

Other observations

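Of the 12 other Ugt entries 8 passed the filter on low counts. Ugt3a1 and Ugt3a2, which do not use UDP-glucuronate as their main sugar donor, had no unadjusted edgeR p under 0.05 in rosuvastatin against vehicle (-0.36 ± 0.19 and -0.01 ± 0.18) or in GGOH against vehicle (-0.13 ± 0.19 and 0.08 ± 0.18). Ugt1a6b, the near copy of Ugt1a6a, averaged 48.4 TPM over the 20 mice, above the 25.3 TPM of Ugt1a6a, with group means of 115.2 CPM for vehicle, 104.4 for rosuvastatin, 110.7 for GGOH and 99.7 for the combination. Ugt1a7c, whose transcript contains that of Ugt1a6a, was low at 0.859 TPM, and its log2 fold change in the combination against vehicle was 1.71 ± 0.58, with an edgeR adjusted p of 0.817. Its highest value, 8.37 CPM, was in combination mouse 3. Ugt1a2 reached at most 0.116 TPM and Ugt2a2 at most 0.215 TPM.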
